A study of Mus musculus with 12 samples.

Results

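A set of 85 rows of a mouse liver single-cell count table, of 18326 rows in all (0.464%), was selected on its summed counts, in that every library taken at zeitgeber time 22 (ZT22) held more of each row than every library taken at ZT10. Zeitgeber time counts hours from lights on. A row is 1 feature of the authors' annotation. The deposited table gives rows by number and pairs no number with a gene name, so the 85 rows are described by their counts alone and by number or rank. The livers came from wild-type (WT) 129S6/SvEv mice and were perfused with collagenase. Hepatocytes were enriched by a spin, and the cells were stored frozen before capture with 10x Genomics Chromium v3 chemistry. The 4 groups were females at ZT10, females at ZT22, males at ZT10 and males at ZT22, with 3 libraries each, and the labels give no other allele and no agent. Age, the number of animals behind a library, and the light and feeding schedule are not given in the sources used here. Nothing says that libraries of 1 group came from separate animals, so p-values measure only the spread between these libraries, which may be technical. Without gene names, the label of liver and the content of hepatocytes could not be checked against marker genes.

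Liver cells carry a molecular clock, a loop in which transcription factors switch on their own repressors and so cycle about once a day. Liver RNAs also follow feeding, fasting and body temperature, and RNAs of bile acid, cholesterol, carbohydrate and xenobiotic metabolism are known to cycle with the time of day. Mice eat mainly in the dark, so under the usual alternation of light and dark ZT10 falls late in the resting phase and ZT22 late in the active phase. Intronic reads come from unspliced, mostly nuclear RNA, and the share of them in a cell's reads differs with how much nuclear and cytoplasmic RNA was captured.

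The selection summed all deposited cells of a library and divided by the library's total of unique molecular identifiers (UMIs, tags that mark single captured transcripts). This gives counts per 1000000 UMIs, written CPM. Of 7285 rows with a mean of at least 10 CPM over the 6 ZT22 libraries, 167 had their lowest ZT22 library above their highest ZT10 library, a share of 2.29%. Among those, 87 had a ZT22 mean of at least 2 times the ZT10 mean. The rule left out 2 of them by number, and none of the rest was among the 100 rows with most UMIs. The same rule with the times exchanged found 93 rows. Since the rule used the difference between the times, all levels at ZT10 and ZT22 of the 85 rows are a description, and nothing is read from the fact that edgeR's quasi-likelihood test called 85 of 85 higher at ZT22 beside 4.29% of the 12505 rows tested. At the edges of the rule, the lowest ratio inside was 2.0016 and the highest outside 1.9988. The lowest ZT22 mean inside was 10.2 CPM and the highest outside 9.08 CPM. The narrowest gap inside, lowest ZT22 library over highest ZT10 library, was 1.016, and the widest outside was 0.996.

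The 12 libraries held 31003 cells and 100273202 UMIs, with 2284202 to 14654630 UMIs and 494 to 3949 cells per library and a median of 2213 to 3734 UMIs per cell. In all, 120 of 30883 barcodes occurred in more than 1 library. Male ZT22 replicate 2 stood apart: its cells had a median intronic fraction of 0.510, against 0.211 to 0.319 in the 11 other libraries. Only 373 of its 2672 cells had an intronic fraction under 0.3. Where it sets a value by a wide margin, the value without it is given too. Male ZT10 replicate 2 was the smallest library. The metadata give each library a sample code, and its first part took 6 values. Of these, 4 were shared by 2 or 3 libraries and held both sexes, and 2 belonged to 1 library each. Each value occurred at 1 time only, so this shared code and the time cannot be told apart.

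Together the 85 rows held 0.265% to 0.356% of all UMIs in the 6 ZT10 libraries and 0.815% to 1.38% in the 6 ZT22 libraries. Female ZT10 libraries had 0.329%, 0.356% and 0.306%, and female ZT22 libraries 0.840%, 0.815% and 0.921%. Male ZT10 libraries had 0.265%, 0.282% and 0.270%, and male ZT22 libraries 0.921%, 1.38% and 0.940%. The 2 times did not overlap, which the rule fixes. In such sums over a library, fewer cells of a kind and less RNA per cell cannot be told apart. Male ZT22 replicate 2 was the highest library, and without it the ZT22 range ended at 0.940%. The mean share was 0.330 ± 0.025% (SD, n = 3) in females and 0.272 ± 0.009% in males at ZT10, and 0.858 ± 0.055% in females and 1.08 ± 0.26% in males at ZT22.

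**Figure D1:**
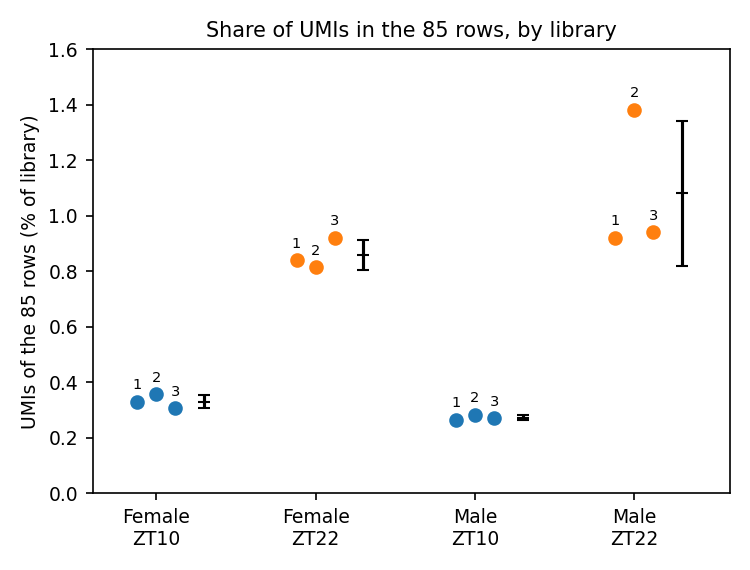
Percent of each library's UMIs that fell in the 85 rows (vertical axis), by sex and time, with the replicate number above each point and the mean ± SD of 3 libraries at the right of each group. The 6 ZT10 libraries lie between 0.265% and 0.356%, 5 of the ZT22 libraries between 0.815% and 0.940%, and male ZT22 replicate 2 at 1.38%.

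Row 8134 had the largest ratio of the 2 times. Its level in the female ZT10 libraries was 15.6, 21.6 and 14.2 CPM, and in the male ZT10 libraries 10.1, 16.2 and 9.8 CPM. At ZT22 it was 202.7, 169.4 and 174.8 CPM in females and 252.4, 259.3 and 194.5 CPM in males. The ratio of the means was 14.3, and the lowest ZT22 library was 7.84 times the highest ZT10 library, the widest gap of the 85. Male ZT22 replicate 2 was close to male ZT22 replicate 1 for this row, so the ratio did not rest on that library.

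Row 1163 had the highest level at ZT22. It was at 489.9, 514.6 and 410.8 CPM in female and at 330.3, 291.1 and 283.7 CPM in male ZT10 libraries. At ZT22 it was at 898.1, 972.0 and 880.6 CPM in females and at 764.8, 1308.0 and 780.8 CPM in males. Its ratio was 2.42. At ZT10 all 3 female libraries were above all 3 male libraries. At ZT22 the male libraries lay on either side of the female ones, with replicate 2 highest.

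The other rows spanned a wide range of levels and ratios. The ratio of the times had a median of 2.79, with 4 rows at 10 or more, 21 between 4 and 10, 14 between 3 and 4 and 46 between 2 and 3. The ZT22 mean ran from 10.2 to 934 CPM with a median of 49.9 CPM, and 18 rows lay under 20 CPM, 43 between 20 and 100 CPM and 24 at 100 CPM or more. The 10 rows with the highest ZT22 level held 50.2% of the summed ZT22 CPM of all 85. The row second by ratio was also second by level, at 19.4 to 104.0 CPM in the ZT10 libraries and 562.2 to 768.6 CPM in the ZT22 libraries. Its 2 highest ZT10 libraries were female replicates 1 and 2. The row of rank 3 by ratio was low in male ZT22 replicate 2, as it was at 33.7 CPM there and at 72.9 to 138.7 CPM in the 5 other ZT22 libraries. The row of rank 4 by ratio had 16 UMIs in the 3 male ZT10 libraries together and 549 in the 3 male ZT22 libraries, and its female ZT10 libraries held 29, 61 and 1 UMIs. Among the 85 rows, 2 pairs had neighbouring row numbers.

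**Figure D2:**
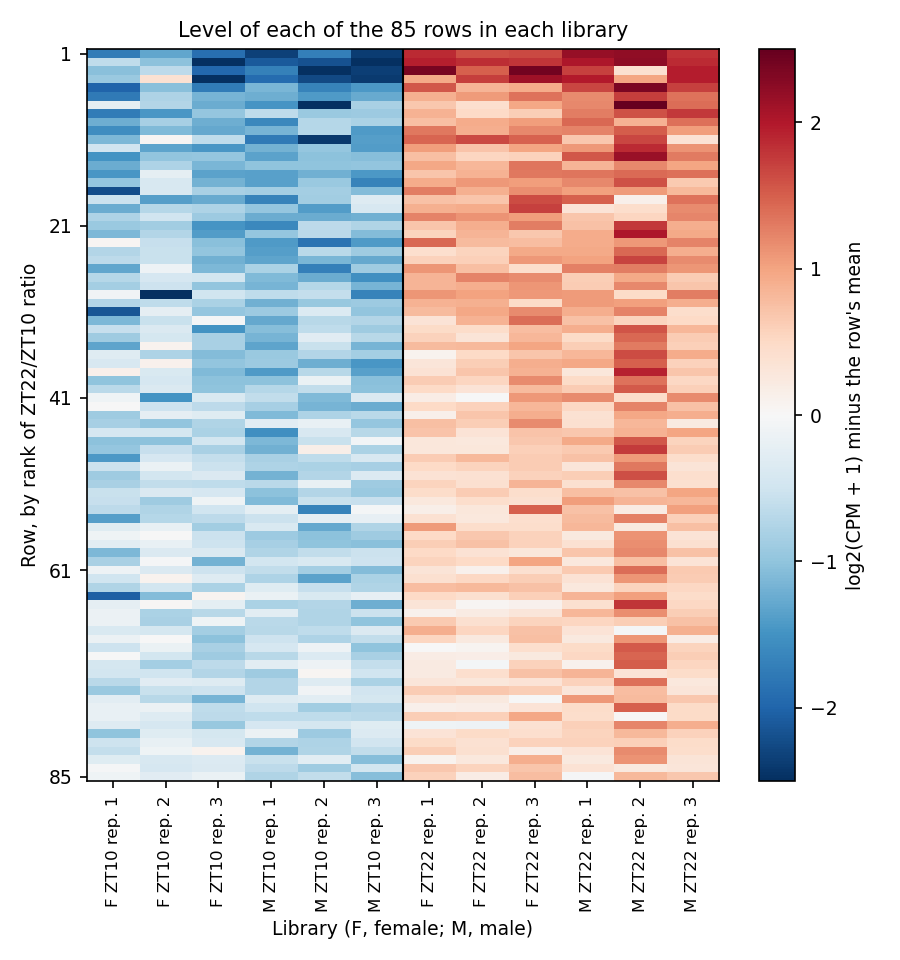
Level of each of the 85 rows (vertical axis, by rank of the ratio of ZT22 to ZT10) in each library (horizontal axis), as log2(CPM + 1) minus the row's mean over 12 libraries, with colours that end at 2.5 in either direction. The line parts the times; male ZT22 replicate 2 has the deepest colour in many rows, being the highest ZT22 library in 56 of 85.

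The order of the libraries within a time is not fixed by the rule. At ZT22, male replicate 2 was the highest library in 56 of 85 rows (65.9%), and it was the highest in 54.4% of all 7285 rows with at least 10 CPM at ZT22. At ZT10, female replicate 2 was the highest library in 35 of 85 rows (41.2%), against 12.2% of the 7285 rows. Male ZT10 replicate 1 was the lowest ZT10 library in 20 of 85 rows (23.5%), against 7.03%. Female ZT22 replicates 1 and 2 were each the lowest ZT22 library in 23 rows (27.1%), against 28.9% and 17.0%. The rule uses the highest ZT10 and the lowest ZT22 library of a row, and how far it shaped these shares was not tested.

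Applied without each library in turn, the rule chose 85 to 104 rows. The 85 rows chosen without male ZT22 replicate 2 included 72 of the 85 chosen with it.

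The rule was also applied in 1 sex and read in the other, whose libraries that choice did not use. The sexes share codes of the metadata, so they are not fully separate. edgeR's tests also shared 1 estimate of the spread over all 12 libraries, so their calls drew in part on the libraries of the choosing sex. In females alone 112 rows met the rule, of which 59 were among the 85. In males, 75 of these 112 rows (67.0%) had all ZT22 libraries above all ZT10 libraries, against 7.76% of the rows with at least 10 CPM in female ZT22 libraries. Their mean was higher at ZT22 in 101 of 112, beside 48.6% of those rows, and at least 2 times as high in 68, beside 2.70%. edgeR's test of time in males, adjusted over all rows by the Benjamini-Hochberg method, called 62 of the 112 higher at ZT22 and 0 lower, with 80 at an unadjusted p under 0.05 beside 15.3% of all rows, and it called 2.16% of the 12505 rows tested higher. In the females the median ratio of these rows was 2.66, and in the males it was 2.48.

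In males alone 200 rows met the rule, of which 82 were among the 85. In females, 127 of these 200 (63.5%) did not overlap between the times and were higher at ZT22, against 7.01% of the rows with at least 10 CPM in male ZT22 libraries. The mean was higher at ZT22 in 182 of 200, beside 30.0% of those rows, and at least 2 times as high in 71, beside 1.64%. edgeR's test of time in females called 78 of the 200 higher and 0 lower, beside 1.36% of all rows tested called higher. This count moved with the library left out, from 42 without female ZT22 replicate 1 and 48 and 50 without female ZT22 replicates 2 and 3 to 103 at the most. The median ratio of the 200 rows was 2.72 in males and 1.66 in females.

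Among the 85 rows themselves, the ratio was larger in males than in females in 66, and in 64 without male ZT22 replicate 2. It ran from 1.24 to 10.6 with a median of 2.49 in females, and from 1.86 to 41.3 with a median of 3.50 in males. Without replicate 2 the median in males was 3.08. The ratio was at least 2 in 61 rows in females and in 83 in males. These counts were not made over all rows, so they are not shown to be particular to the 85. In males the mean was higher at ZT22 in 48.6% of rows with at least 10 CPM in female ZT22 libraries. In females it was higher in 30.0% of rows with at least 10 CPM in male ZT22 libraries. The highest male ratio belonged to the row with 16 UMIs in the male ZT10 libraries.

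**Figure D3:**
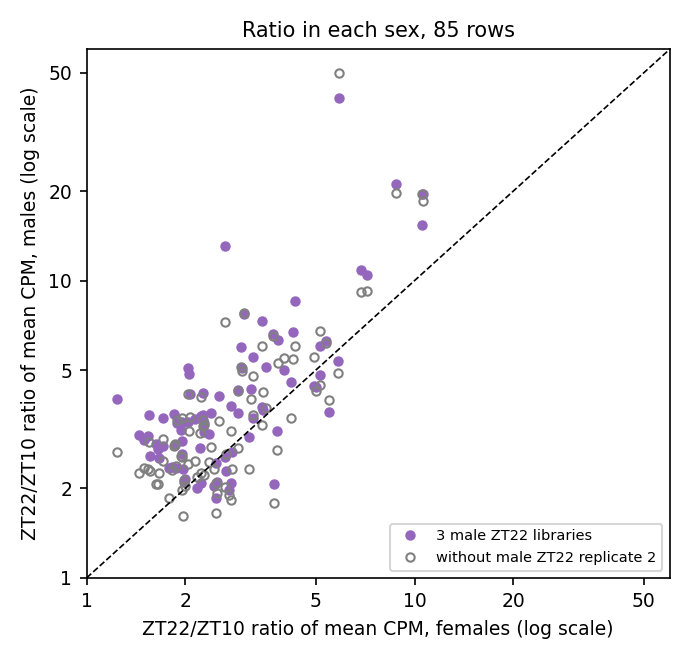
Ratio of mean CPM at ZT22 to ZT10 in males (vertical, log scale) against females (horizontal, log scale) for the 85 rows, with all 3 male ZT22 libraries (filled) and without male ZT22 replicate 2 (open); the dashed line marks equal ratios. In all, 66 filled points and 64 open points lie above the line.

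The difference between these ratios was tested as the interaction of sex and time. edgeR called 0 of the 85 rows and 0% of all 12505 rows, and the lowest adjusted p among the 85 was 0.729. At an unadjusted p under 0.05 there were 20 of 85 rows, beside 5.91% of all rows. DESeq2 called 0 of the 85, with 66 of them given an adjusted p, and 12 rows in all. The difference of the log2 time effects, female minus male, was below 0 in 62 of 85 rows and had a median of -0.44, and of -0.34 without male ZT22 replicate 2. The rows below 0 were not counted over the whole table. Scaling by library total in place of TMM moved the median of all rows from -0.01 to -0.11 and that of the 85 from -0.44 to -0.56. The rule asked for separation of the times over both sexes, which limits how far the effects could differ.

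Sex was not used by the rule. Averaged over both times, edgeR called 3 of 85 rows, 2 higher in females and 1 higher in males. Of all rows tested 5.26% were called, 2.73% higher in females and 2.53% higher in males. At an unadjusted p under 0.05 there were 18 of the 85 rows (21.2%), beside 18.4% of all rows. The share of the 85 rows called at an adjusted p under 0.05, 3.53%, was thus not above that of the whole table. With the shared code of the metadata as a block, edgeR called 0 of the 85 at an adjusted p under 0.05, beside 3.3% of all rows, and 10 had an unadjusted p under 0.05, beside 12.5%.

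Row 7970 was higher in females, by 1.02 ± 0.26 on the log2 scale (SE, edgeR adjusted p = 0.0293). It was at 6.7, 16.5 and 9.9 CPM in female and at 4.0, 2.2 and 5.5 CPM in male ZT10 libraries. At ZT22 it was at 45.2, 52.1 and 46.0 CPM in females and at 25.9, 52.6 and 20.7 CPM in males. The sexes did not overlap at ZT10, and at ZT22 they overlapped only through male replicate 2. Its adjusted p was 0.00685 without that library and 0.175 with the code as a block, and over 21 alternatives it ran from 0.00253 to 0.175.

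Row 923 was the other row called higher in females, by 0.63 ± 0.13 on the log2 scale (adjusted p = 0.00647). Its ZT10 levels were 17.4, 21.7 and 20.8 CPM in females and 13.1, 11.8 and 9.5 CPM in males. Its ZT22 levels were 53.3, 70.3 and 67.1 CPM in females and 45.5, 56.9 and 46.2 CPM in males. The sexes did not overlap at ZT10, and at ZT22 only the lowest female library lay under the highest male one. The call held in 20 of 21 alternatives and not with the code as a block, where the adjusted p was 0.0801.

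Row 10953 was higher in males, with a log2 difference, female minus male, of -0.80 ± 0.19 (adjusted p = 0.0235). It was at 1.6, 2.1 and 3.4 CPM in female and at 4.5, 3.5 and 3.6 CPM in male ZT10 libraries. At ZT22 it was at 14.6, 11.1 and 12.1 CPM in females and at 19.7, 24.8 and 27.9 CPM in males. The sexes did not overlap at either time. At ZT10 the gap was narrow, with the highest female library at 3.4 CPM and the lowest male one, the small replicate 2, at 3.5 CPM. The call was lost in 8 of 21 alternatives, with an adjusted p of up to 0.291. One of these was the main clusters alone (described below), where 0 of the 85 rows were called higher in males. Its ZT10 mean was 1.62 CPM in the main clusters and 16.5 CPM in the clusters set apart, and its ZT22 mean 18.0 and 20.3 CPM. Cells set apart were 5.65% to 17.5% of female and 14.0% to 26.7% of male ZT10 libraries. At ZT22 they were 13.3% to 24.1% of female and 3.03% to 15.4% of male libraries. The part of these cells in the call was not tested.

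Which sex was higher was counted within each time. At ZT10 the female mean was higher in 53 of 85 rows (62.4%), against 52.0% of the 7285 rows with at least 10 CPM at ZT22. All female ZT10 libraries lay above all male ones in 16 of the 85 rows (18.8%, beside 8.62% of those rows), and all male above all female ones in 2 rows, beside 6.63%. At ZT22 the female mean was higher in 20 of 85 rows (23.5%), beside 37.5% of the 7285 rows. Without male ZT22 replicate 2 it was higher in 35 (41.2%), beside 46.9%. All male ZT22 libraries lay above all female ones in 25 of 85 rows, beside 12.7% of the 7285 rows, and all female above all male ones in 3, beside 7.58%. Without male ZT22 replicate 2 these counts were 27 and 16, with shares of all rows of 15.5% and 13.3%.

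Few of these rows passed edgeR's test at 1 time. At ZT10 it called 1 of 85, which was row 923 at 0.80 ± 0.18 on the log2 scale (adjusted p = 0.0315, and 0.279 with the code as a block), beside 2.42% of all rows called in either direction, 1.26% higher in females and 1.16% higher in males. At ZT22 it called 2 of 85 rows, both higher in males, beside 3.77% of all rows, 1.98% higher in females and 1.78% higher in males. Row 4834 differed by -0.97 ± 0.25 (adjusted p = 0.0478). It was at 265.3, 226.7 and 232.6 CPM in female and at 460.4, 704.1 and 387.5 CPM in male ZT22 libraries, without overlap. At ZT10 its female levels were 54.6, 77.9 and 79.2 CPM and its male levels 60.8, 76.6 and 74.5 CPM, which overlapped. Row 8181 differed by -0.79 ± 0.19 (adjusted p = 0.0323), with 22.8, 22.6 and 32.6 CPM in females and 38.1, 58.7 and 47.2 CPM in males. Without male ZT22 replicate 2, 0 of the 85 rows were called at ZT22, and edgeR's adjusted p was 0.104 for row 4834 and 0.0647 for row 8181. With the code as a block it was 0.301 and 0.164. The call of row 4834 held in 6 of 21 alternatives and that of row 8181 in 10 of 21. At an unadjusted p under 0.05, edgeR's test gave 20 of the 85 rows (23.5%) at ZT10, beside 1207 of all 12505 rows. At ZT22 it gave 18 of the 85 (21.2%), beside 2207 of all rows. With the code as a block these were 12 of the 85 beside 832 at ZT10, and 6 beside 1420 at ZT22.

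The cells of each library were next split at the library's median of the deposited intronic fraction, and the sums of the 2 parts were compared with the library as a block. This contrast lies within libraries and was not itself used by the rule. The rule did use the level in male ZT22 replicate 2, the library with the highest intronic fraction. Without that library, 13 of the 85 rows were not chosen. The intronic values of the 85 rows are thus not fully separate from the choice, and how far the choice shaped them was not tested. In the intron-poor cells the median fraction per library was 0.154 to 0.393, and in the intron-rich cells 0.264 to 0.574. Both upper ends were male ZT22 replicate 2, and without it the ranges were 0.154 to 0.258 and 0.264 to 0.433, which do not overlap. The median mitochondrial percent had its median over libraries at 13.2% in the intron-poor and 10.1% in the intron-rich cells, so the parts differed in more than introns. edgeR with TMM normalization called 65 of the 85 rows, 48 higher and 17 lower in the intron-rich cells. Of the 10407 rows tested, 73.1% were called, 34.5% higher and 38.6% lower. The median log2 difference was 0.25 over the 85 rows and -0.04 over all rows.

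The scale bears on these counts, as TMM and the library total differed between the parts. Scaled by the total, 65 of the 85 rows were called higher and 7 lower, beside 48% higher and 20.2% lower of all rows. On both scales 55 rows were called, each in the same direction. The median was then 0.50 over the 85 rows and 0.20 over all rows. On either scale the median of the 85 rows lay above that of all rows. In all 12 libraries, 22 rows were higher in the intron-rich cells and 6 were lower on the TMM scale. The same count was not made over all rows, so it is not shown to be particular to the 85.

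Row 34 had the largest difference, 1.78 ± 0.13 on the log2 scale (SE, edgeR adjusted p = 5.69e-12). It was at 1.04 to 9.91 CPM in the intron-poor and at 4.45 to 38.2 CPM in the intron-rich cells of the 12 libraries, and was higher in the intron-rich cells in 12 of 12. Row 15345 followed at 1.10 ± 0.13 (adjusted p = 1.85e-08), higher in 11 of 12 libraries. In the other direction, row 272 was lower in the intron-rich cells in 12 of 12 libraries, at 57.9 to 214.6 CPM in the intron-poor and 36.0 to 161.9 CPM in the intron-rich cells, a log2 difference of -0.63 ± 0.06 (adjusted p = 5.08e-10). Row 3233 was lower by -0.56 ± 0.12 (adjusted p = 1.46e-04), in 10 of 12 libraries. None of 18 alternatives reversed any of these 4 rows, and 1 of them ended the call of row 3233, at an adjusted p of 0.0512.

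Split by the mitochondrial percent, the cells gave fewer calls on the TMM scale, and the balance of higher and lower calls depended on the scale. The median percent per library was 2.55% to 7.62% in the mitochondria-poor and 9.59% to 27.1% in the mitochondria-rich cells. On the TMM scale, without the mitochondrial rows, edgeR called 38 of the 85 rows, 26 higher and 12 lower in the mitochondria-rich cells, beside 19% higher and 22.3% lower, 41.2% in all, of the 10363 rows tested. By library total it called 59 rows, 12 higher and 47 lower, beside 7.85% higher and 57.6% lower of all rows. No row was called on both scales in opposite directions: 24 kept their call and direction, 14 called higher on the TMM scale were no longer called, and 35 called lower were gained. The median of all rows moved from -0.01 to -0.24 between these scales, and that of the 85 from 0.04 to -0.20. The 2 largest differences in each direction kept their direction under every one of 18 alternatives. Row 6599 was at 3.50 to 61.8 CPM in the mitochondria-poor and at 13.8 to 118.7 CPM in the mitochondria-rich cells (log2 difference 1.41 ± 0.13, adjusted p = 1.23e-08). Row 8777 was higher by 1.04 ± 0.14. Both were higher in 12 of 12 libraries. Row 34 was lower by -1.25 ± 0.14 in 12 of 12 libraries, and row 15345 by -0.79 ± 0.14 in 11 of 12.

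The rows with the largest intronic difference were thus also those with the largest mitochondrial difference of opposite sign. Over the 85 rows, 42 were called in the intronic split alone, 15 in the mitochondrial split alone and 23 in both. Of the 23, 8 were higher in intron-rich and lower in mitochondria-rich cells, 8 the reverse, and 7 went the same way in both, 6 of them higher. The splits share the same cells, so the counts are a description. Singly, the intronic split called 73.1% and the mitochondrial split 41.2% of all rows tested. The joint counts were not made over all rows, so they are not shown to be particular to the 85.

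**Figure D4:**
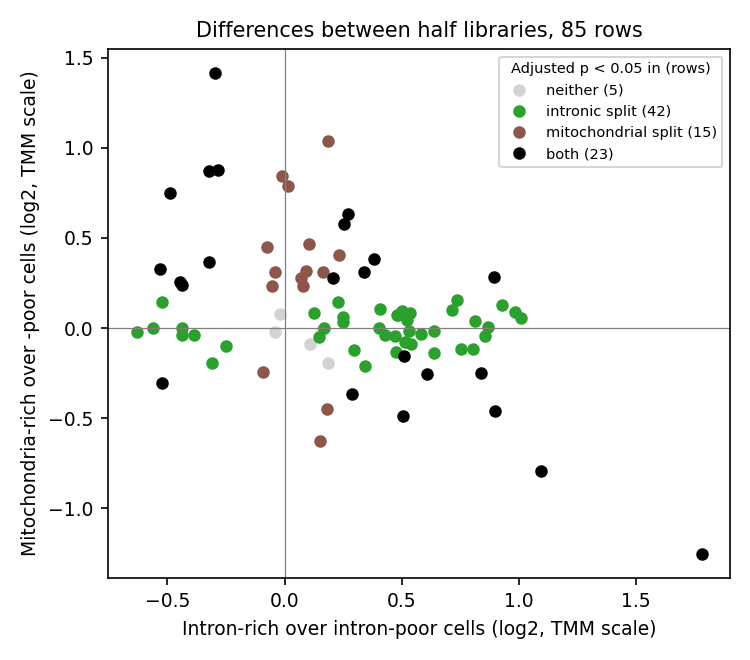
Log2 difference between mitochondria-rich and mitochondria-poor cells (vertical) against that between intron-rich and intron-poor cells (horizontal) for the 85 rows, on the TMM scale, coloured by the split in which edgeR's adjusted p was under 0.05. More points lie right of 0 than left of it, 48 rows being called higher and 17 lower in intron-rich cells, and row 34 is the point at lower right.

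Split by the UMI count of the cell, 33 of the 85 rows were called, 30 higher and 3 lower in the UMI-rich cells, beside 15.2% higher and 14.4% lower, 29.6% in all, of the 10465 rows tested. This was also scale-dependent: by library total 19 rows were called, 8 higher and 11 lower, beside 2.17% higher and 26.5% lower of all rows. Of the rows called on both scales, 11 kept their direction and 0 reversed, while 22 called higher were lost and 8 called lower were gained. The median of all rows moved from 0.02 to -0.15 between the scales, and that of the 85 from 0.15 to -0.04. Rows 8777 and 6599 were higher on the TMM scale by 0.61 ± 0.22 and 0.58 ± 0.14, each in 9 of 12 libraries, and the call of row 8777 was lost in 10 of 18 alternatives. Row 5710 was lower by -0.38 ± 0.09 and row 7542 by -0.34 ± 0.10, each in 10 of 12 libraries. The UMI-rich cells had a median mitochondrial percent of 5.24% to 20.3% per library, and the UMI-poor cells of 4.58% to 14.4%.

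The levels at the 2 times were also compared within each part of the cells, as a description. The median ratio of ZT22 to ZT10 over the 85 rows was 2.88 in intron-poor and 2.96 in intron-rich cells, 2.79 in mitochondria-poor and 3.10 in mitochondria-rich cells, and 2.75 in UMI-poor and 3.07 in UMI-rich cells. Between 74 and 80 of the 85 rows did not overlap between the times in any one of these parts. Of all 7285 rows, 2.76% did not overlap and were higher at ZT22 in intron-poor and 2.88% in intron-rich cells, 2.75% in mitochondria-poor and 2.98% in mitochondria-rich cells, and 2.17% in UMI-poor and 3.02% in UMI-rich cells. Restricted to cells with an intronic fraction under 0.3, the rule gave 72 rows, 61 of them among the 85.

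Male ZT22 replicate 2 was compared with the mean of the 2 other male ZT22 libraries, row by row. It lay above both in 62 of 85 rows, beside 61.3% of the 7285 rows with at least 10 CPM at ZT22, and below both in 14, beside 29.4%. Its log2 ratio to the others ran from -1.46 to 1.77 over the 85 rows, with a median of 0.49, and the median over the 7285 rows was 0.39. Over the 85 rows this log2 ratio went with the intronic difference fitted in the 11 other libraries, at r = 0.485 (Pearson) and rho = 0.634 (Spearman), over n = 85 rows that share libraries and depth. Of the 62 rows with an intronic difference above 0, 56 were higher in replicate 2 than the mean of the others. Of the 23 below 0, 9 were. The correlation and these counts were not computed over the 7285 rows, so they are not shown to be particular to the 85. The rule also used the level in replicate 2, so they are a description. The 2 rows with the largest intronic difference went the other way. Row 34 was at 13.6 CPM in replicate 2 and at 23.3 and 23.2 CPM in the other male ZT22 libraries, and row 15345 at 11.5 CPM against 31.2 and 28.3 CPM. In all, 11 of the 85 rows had a ratio under 2 without replicate 2.

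**Figure D5:**
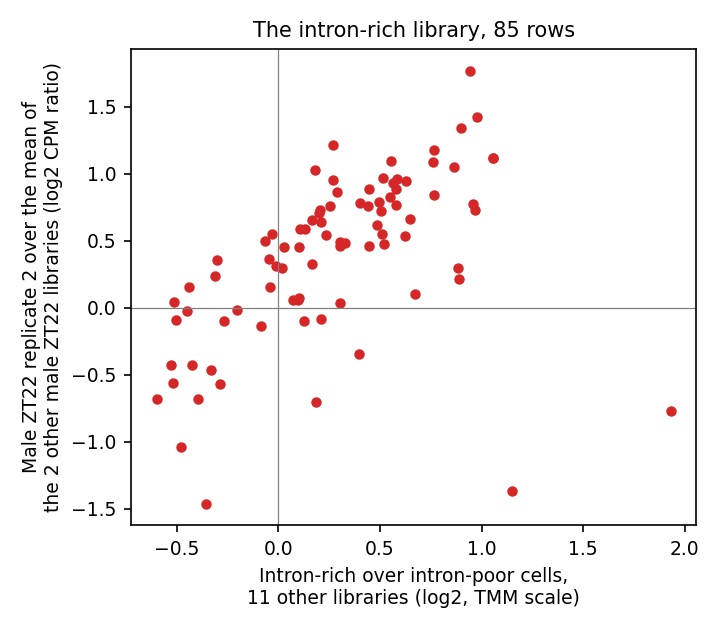
Log2 ratio of CPM in male ZT22 replicate 2 to the mean of the 2 other male ZT22 libraries (vertical) against the log2 difference between intron-rich and intron-poor cells in the 11 other libraries (horizontal), 1 point for each of the 85 rows. Most points right of 0 lie above 0, with rows 34 and 15345 at the lower right as exceptions.

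The share of cells with a UMI was compared at equal depth, with each cell of at least 1000 UMIs thinned to 1000 UMIs. This kept 30738 cells and left out 221 at ZT10 and 44 at ZT22. Row 8134 had a UMI in 1.39 ± 0.35% of the thinned cells at ZT10 (SD, n = 6 libraries, 1.02% to 1.92%) and in 16.6 ± 2.49% at ZT22 (13.6% to 20.4%). Without thinning these shares were 4.91% and 40.2%. Row 1163 had a UMI in 31.0 ± 6.07% of thinned cells at ZT10 and in 53.8 ± 7.84% at ZT22, and unthinned in 63.8% and 81.5%. The libraries of the 2 times did not overlap for either row.

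Over the 85 rows the share of thinned cells with a UMI was a median of 1.58% at ZT10 and 4.69% at ZT22, and stayed under 10% at ZT22 in 61 rows. The ratio of these shares had a median of 2.88 (1.74 to 13.03). The number of UMIs per cell with a UMI differed less, by a ratio with a median of 1.02 (0.98 to 1.47). At 1000 UMIs per cell most cells with a UMI of a row of this level hold only 1, so the share carries nearly all of any difference in level. No cell type known to lack these rows could be named without gene names, so the part of free RNA in the shares was not tested.

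The cells were clustered without naming the clusters. There were 4 main clusters with 26640 cells (85.9%) and 3 clusters set apart by leading rows with a high fold over all other cells, with 4363 cells. The smallest of these, 79 cells, came to 98.7% from male ZT10 replicate 2. The clusters were made from the same counts, so their levels are a description. In the main clusters the 85 rows held 0.263% to 0.358% of UMIs at ZT10 and 0.854% to 1.39% at ZT22. In the clusters set apart they held 0.235% to 0.335% at ZT10 and 0.572% to 1.02% at ZT22, the highest value again in male ZT22 replicate 2, from 81 cells. Without that library the ZT22 ranges ended at 0.972% in the main clusters and at 0.629% in the clusters set apart. Among the main clusters, the 85 rows' share at ZT22 had its highest median over libraries, 1.30%, in cluster 3, and its lowest, 0.687%, in cluster 2.

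In both kinds of cluster the ZT22 mean was above the ZT10 mean in 85 of 85 rows. The times did not overlap in 85 rows in the main clusters, beside 2.17% of the 7285 rows, and in 33 in the clusters set apart, which held fewer cells, beside 0.961%, and the median ratios were 2.90 and 2.30. At ZT22, 63 rows were higher in the main clusters and 22 in the clusters set apart. In all 12 libraries 20 rows were higher in the main clusters and 4 in the clusters set apart. Shares over all rows were not computed for these counts or for the 85 of 85. The rule used sums in which most cells were of the main clusters, so the counts do not place the 85 rows in either kind of cluster. Row 5710, 1 of the 4, had a ZT10 mean of 10.1 CPM and a ZT22 mean of 49.0 CPM in the main clusters, and of 80.2 and 139.5 CPM in the clusters set apart. Its ratio was thus 4.86 in the former and 1.74 in the latter. Row 7542, another of the 4, went from 22.4 to 81.6 CPM in the main clusters and from 120.8 to 164.7 CPM in the clusters set apart. Row 8134 had a mean of 221.1 CPM in the main clusters and 83.9 CPM in those set apart at ZT22, with ratios of 14.7 and 7.64. The share of cells set apart was 3.03% in male ZT22 replicate 2 and 5.65% to 26.7% in the 11 other libraries.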

How the data were processed

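Single-cell RNA libraries of mouse liver, 3 in each of 4 groups of sex and time, were read from the authors' deposited table of UMI counts, whole numbers for 18326 rows and 31003 cells, and from 1 deposited metadata line for each cell. An intronic fraction is among the columns per the file headers, with no stated denominator, and so is a deposited mitochondrial percent, which equalled the summed share of 13 rows in every cell. The submitters' processing notes name Cell Ranger 6.1.2, Seurat and the build mm10. Annotation, cell filters and doublet treatment are not given in the sources used here, and no doublets were removed here. The mouse tables of gene names at hand could not be joined to row numbers, so no name and no sequence is given. Columns of another sample numbered 0.

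Counts were summed per library and fitted in edgeR 4.0.16 under R 4.3.3 (filterByExpr, TMM factors, 1 mean per group, quasi-likelihood test), with Benjamini-Hochberg adjustment over all rows tested and a threshold of 0.05. All 85 rows passed the filter on low counts. For the splits, 24 sums were tested with the library as a block, and CPM in those paragraphs are TMM-scaled. DESeq2 1.42.0, RLE size factors, no filter, blocks and left-out libraries or cells were alternatives. Scaling by library total in the tests, and leaving out 88 cells of male ZT10 replicate 2 that carry a second library tag, were added after seeing the data. Clusters came from scanpy 1.11.5 and igraph 0.11.9 (2000 variable rows, 8 principal components, 15 neighbours, resolution 0.3), with settings chosen after seeing the data, and a cluster was set apart where its 10 leading rows had a median fold above 8. Scripts were tested on simulated data.

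The 85 rows, the rule and the comparisons were chosen with earlier results of these data known. Rows given by number are those with the largest ratio and the highest ZT22 level for time, and for sex and the splits the called rows with the largest log2 difference, at most 2 in each direction. Rows given by rank, and row 8134 and rows 5710 and 7542 in the clusters, were chosen after their values were seen. Same-numbered female and male ZT10 libraries deviated together (r = 0.243, 0.176 and 0.171), and those at ZT22 did not (r = -0.07, -0.15 and 0.03). Same-numbered libraries of different times, which share no code, had r = 0.274, 0.112 and 0.003 in females and -0.04, 0.212 and 0.251 in males. Values of this size thus do not show which libraries a number pairs, and the labels do not say what it marks.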

Additional observations from a re-analysis of the deposited data

Results flagged for a closer look

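In each set of 6 libraries of 1 time, the library farthest from the others was compared with the range of the set, for 36 sets of values. A gap to the nearest library above 0.625 of the range marked 3 of them, and chance marks about 1 in 20. The summed share of the 85 rows at ZT22 was 1.38% in male ZT22 replicate 2, against 0.815% to 0.940% in the 5 other libraries. The same library had a median intronic fraction of 0.510, against 0.211 to 0.244. Over the 85 rows taken singly, it was the far library at ZT22 in 20 of 85, the only library so marked at ZT22, and at ZT10 a far library was found in 5 of 85. The shares over all rows were not computed, so these counts are not shown to be particular to the 85. Among the 7285 rows with at least 10 CPM at ZT22, this library was the highest at ZT22 in 54.4% and the lowest in 25.0%. The part of its intronic fraction in its level of the 85 rows was not tested. Row 8181 was at 12.3 CPM in female ZT10 replicate 3 and at 17.9 to 19.8 CPM in the 5 other ZT10 libraries.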

How the results depend on the processing

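The number of rows the rule chose was 85 with all libraries and 85 to 104 without each library in turn. It was 135 at a ratio of at least 1.5 and 39 at a ratio of at least 3, and stayed within 1.5 times of 85 under 9 other settings. The 3 rows called for sex became 0 with the shared code as a block. Leaving out 1 library gave 1 to 6, with 1 without female ZT10 replicate 2, female ZT22 replicate 2 or male ZT10 replicate 1, and 6 without female ZT10 replicate 3. The 2 rows called at ZT22 became 0 in cells with an intronic fraction under 0.3, in the main clusters alone, with libraries thinned to the smallest and with the code as a block, and 0 to 3 without 1 library, with 0 without any 1 of the 3 female ZT22 libraries or male ZT22 replicates 1 or 2. The 1 row called at ZT10 became 4 with DESeq2 and in cells with an intronic fraction under 0.3, 2 with thinned libraries, and 0 by library total, without a filter on low counts or with the code as a block, and 0 to 4 without 1 library, with 0 without any 1 male ZT10 library, female ZT10 replicate 2 or female ZT22 replicates 1 or 3. The interaction stayed at 0 in every setting run. With the replicate number as a block (replicate block), 3 rows were called for sex, 1 at ZT22, 1 at ZT10 and 0 for the interaction, and 63 and 92 of the rows chosen in females and in males were called in the other sex. As a hint from the data, at ZT10 each of 6 libraries correlated best with the library of its own number in the other sex, and at ZT22 0 of 6 did. Between the times, 3 of 6 female and 4 of 6 male libraries correlated best with their own number, so what a number pairs stays unsettled. Rows chosen in females and called in males numbered 46 to 70 without 1 library, and those chosen in males and called in females 42 to 103. Without 1 library, the intronic split called 61 to 67 rows, the mitochondrial split 34 to 38 and the UMI split 25 to 35, and scaling by library total gave 59 in the mitochondrial and 19 in the UMI split. The rows given by number for sex and the splits kept their direction in all of 342 refits. Those for sex lost their call in 53 of 126 and those for the splits in 11 of 216. The cause of these changes was not tested. The smallest library, with 2284202 UMIs, limits the precision of rows near 10 CPM.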
